A study of Mus musculus with 16 samples.

Results

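RNA abundance in mouse spleen was examined for 9 genes whose products make up platelets and the megakaryocytes that release them: *Pf4*, *Ppbp*, *Gp1ba*, *Gp1bb*, *Gp9*, *Gp5*, *Gp6*, *Treml1* and *Vwf*. They were taken by symbol from a count table of 54838 gene identifiers, each symbol matched 1 identifier, and 9 of 9 passed the filter on low counts that left 14510 genes for testing. The study asked which genes are enriched in spleen glia compared with whole spleen, and it holds 8 size-selected and 8 whole spleen samples from C57BL/6 mice. Size-selected samples are the cells that a strainer held back after the spleen was minced, digested with enzymes and freed of red blood cells; their source is named as spleen glia. Whole spleen carries the same protocol text, and how it was prepared is not described separately. Each group has 1 sample of each of the numbers 407, 408, 427 and 435 (male) and 436, 445, 447 and 460 (female); ages are not given, no genetic change or treatment is named, and nothing says whether same-numbered samples came from 1 animal, so p-values measure the spread between these samples.

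Megakaryocytes are very large, polyploid cells that shed platelets, and in adult mice the spleen as well as the bone marrow houses them. Platelets have no nucleus and carry RNA received from the megakaryocyte. At a site of vessel injury the GPIb-IX-V complex on the platelet surface binds von Willebrand factor, GPVI binds collagen, and alpha-granules release chemokines and adhesive proteins. Von Willebrand factor is also made by endothelial cells, which store it in Weibel-Palade bodies. In bulk RNA, fewer cells of a type and less RNA per cell cannot be told apart, and neither can RNA of megakaryocytes and RNA of platelets.

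The members share no chromosomal neighbourhood except for the 2 chemokine genes, which lie near each other on the forward strand of chromosome 5 (GRCm38, GENCODE M21 annotation: *Ppbp* at chr5:90768518-90770063 and *Pf4* at chr5:90772435-90773383). *Gp1ba* is on chromosome 11, *Gp1bb* and *Gp5* on the reverse strand of chromosome 16, *Gp9* and *Vwf* on chromosome 6, *Gp6* on chromosome 7 and *Treml1* on chromosome 17. All are protein-coding. *Gp1bb* shares 1938 bases on the same strand with the gene model *Gm49601*, which the count table does not hold under that symbol. It also shares 1902 bases with *Sept5*, whose estimated counts ran from 0 to 99.8. How reads were divided among overlapping genes, and with it the level of *Gp1bb*, is uncertain.

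Promoter windows, from 250 bases before to 50 bases after the start of the gene (RefSeq, GRCm38.p6), were at hand for 8 of the 9 members. They were searched on both strands for the core motifs of 3 factor families of the megakaryocyte lineage: the GATA motif as AGATAA and in the variant form TGATAA, the ETS motif as AGGAAG and in the variant form CGGAAG, and the RUNX motif as TGTGGT and in the variant form TGCGGT. The GATA motif was in 4 of 8 windows (*Pf4*, *Gp1ba*, *Gp5*, *Gp6*), against 18.6% of the 32851 promoter windows of the same length. An ETS motif was in 5 of 8 (*Pf4*, *Gp1ba*, *Gp1bb*, *Gp9*, *Gp5*), against 46.5%, and a RUNX motif in 1 of 8 (*Gp9*), against 22.4%. A match is a description of the letters only. The windows of 4 members are shown 5′ to 3′ on the strand of the gene, with motif matches of the 3 families in capitals: the neighbours *Pf4* and *Ppbp*, which differ in motif content, and 2 subunits of the von Willebrand factor receptor, which each hold 2 GATA motifs and 1 ETS motif.
Pf4, chr5:90772185-90772484, forward strand: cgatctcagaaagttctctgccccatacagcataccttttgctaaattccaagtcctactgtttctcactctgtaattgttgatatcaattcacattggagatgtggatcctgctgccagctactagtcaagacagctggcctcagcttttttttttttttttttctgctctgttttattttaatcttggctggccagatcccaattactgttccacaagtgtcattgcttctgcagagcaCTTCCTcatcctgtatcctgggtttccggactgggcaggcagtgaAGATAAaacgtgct
Ppbp, chr5:90768268-90768567, forward strand: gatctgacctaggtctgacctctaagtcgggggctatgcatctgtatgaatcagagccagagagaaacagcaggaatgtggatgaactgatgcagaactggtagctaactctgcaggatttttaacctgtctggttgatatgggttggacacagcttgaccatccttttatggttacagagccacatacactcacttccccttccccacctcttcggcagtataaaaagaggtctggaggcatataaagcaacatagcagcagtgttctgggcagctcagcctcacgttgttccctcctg
Gp1ba, chr11:70638872-70639171, forward strand: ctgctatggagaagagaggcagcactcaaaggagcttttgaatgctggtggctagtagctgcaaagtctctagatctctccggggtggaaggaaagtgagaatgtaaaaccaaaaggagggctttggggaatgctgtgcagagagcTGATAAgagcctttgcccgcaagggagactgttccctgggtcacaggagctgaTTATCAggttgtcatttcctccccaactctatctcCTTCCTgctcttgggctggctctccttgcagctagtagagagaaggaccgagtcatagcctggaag
Gp5, chr16:30310732-30311031, reverse strand: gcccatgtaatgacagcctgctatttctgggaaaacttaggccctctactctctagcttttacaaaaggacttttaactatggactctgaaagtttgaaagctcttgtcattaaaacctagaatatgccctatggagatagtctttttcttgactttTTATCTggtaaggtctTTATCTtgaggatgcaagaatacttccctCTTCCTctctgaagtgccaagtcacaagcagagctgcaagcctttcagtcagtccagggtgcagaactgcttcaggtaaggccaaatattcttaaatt
The first base of an ETS match lay 9 bases before the start in *Pf4*, 16 bases before it in *Gp1ba* and in *Gp9*, and 48 bases before it in *Gp5*. *Ppbp*, whose RNA ranked the 8 whole spleen samples as *Pf4* did, held none of the 3 motifs in its window.

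The 2 alpha-granule chemokines were the most abundant members in the deposited values, and also per kilobase of exon. With the constants described below for *Vwf* divided out, *Vwf* passed *Pf4* in the size-selected samples on the CPM scale (79.8 against 69.0 CPM on average), but not per kilobase. *Pf4* encodes platelet factor 4 (CXCL4), and in whole spleen it ran from 15.9 CPM (counts scaled to the TMM-adjusted total of the sample) through a median of 25.7 to 51.9. In the size-selected samples the lowest was 18.3, the median 71.3 and the highest 136 CPM. The top whole spleen sample was above the bottom 2 size-selected samples, so the groups overlapped, but within every number the size-selected sample was the higher. *Pf4* rose by 1.39 on the log2 scale (SE 0.34, 8 against 8 samples; edgeR adjusted p = 0.00136). *Ppbp* encodes pro-platelet basic protein (CXCL7) and ran from 21.3 through 33.8 to 78.2 CPM in whole spleen and from 27.1 through 105 to 214 CPM in the size-selected samples. It was also higher in 8 of 8 pairs, and its rise was 1.57 on that scale (SE 0.36, edgeR adjusted p = 0.000827).

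Every one of the 9 members passed an adjusted p under 0.05 with the size-selected samples above, as did 37.5% of all genes tested. Their median log2 fold change was 1.65, against 0.048 over the 14510 genes. The 6 members higher in all 8 pairs (31.3% of all genes were) were *Pf4*, *Ppbp*, *Gp9*, *Gp5*, *Gp6* and *Vwf*. Only *Vwf* had no overlap between the groups in CPM, where 23.3% of all genes had none with the size-selected samples above. For the other 8 members at least 1 whole spleen sample exceeded the lowest size-selected sample.

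**Figure D1:**
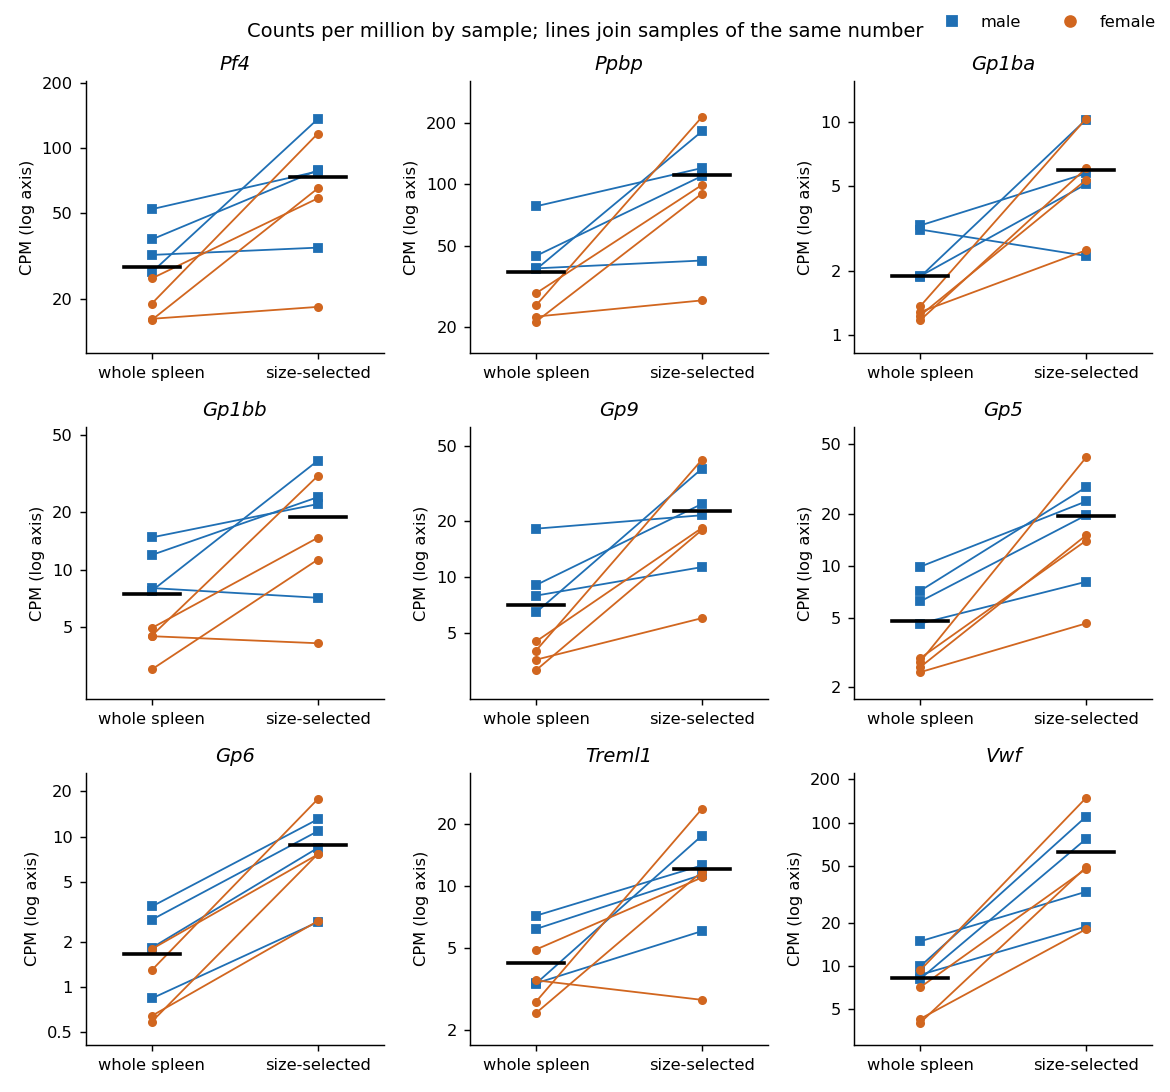
CPM of each member on a log axis in whole spleen (left) and size-selected samples (right), with a line joining the samples of each number, squares for males, circles for females and a bar at the mean of 8. Most lines climb, the steepest being number 436 for all 9 members, while 408 and 460 are nearly flat for *Pf4* and *Ppbp*; only for *Vwf* do all size-selected points lie above all whole spleen points.

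The 4 subunits of the GPIb-IX-V complex, the platelet receptor for von Willebrand factor, rose by log2 fold changes of 1.34 to 2.01. *Gp1ba*, the subunit that carries the binding site, ran from 1.18 through a median of 1.62 to 3.27 CPM in whole spleen and from 2.35 through 5.53 to 10.3 CPM in the size-selected samples (log2 fold change 1.65, SE 0.34, edgeR adjusted p = 0.000267). It was higher in 7 of 8 pairs; number 408 went the other way, with 3.13 CPM in whole spleen and 2.35 CPM in the size-selected sample. These values rest on 18 to 42 counts a sample in whole spleen. *Gp1bb*, the beta chain linked to it, ran from 3.02 through 6.36 to 14.7 CPM in whole spleen and from 4.13 through 18.3 to 36.9 CPM in the size-selected samples (log2 fold change 1.34, SE 0.41, edgeR adjusted p = 0.00692). It was higher in 6 of 8 pairs, the fewest of any member, and lower in numbers 408 and 460.

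*Gp9*, the small subunit needed to bring the complex to the surface, ran from 3.16 through 5.48 to 18.1 CPM in whole spleen and from 6.01 through 19.8 to 42.4 CPM in the size-selected samples (log2 fold change 1.67, SE 0.40, edgeR adjusted p = 0.00113). *Gp5*, which codes for the thrombin-cleaved subunit, ran from 2.44 through 3.80 to 9.88 CPM and from 4.66 through 17.3 to 42.1 CPM (log2 fold change 2.01, SE 0.40, edgeR adjusted p = 0.000233). Both were higher in 8 of 8 pairs, although the whole spleen sample 407 stood above 2 or more size-selected samples in each.

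*Gp6* encodes GPVI, the main collagen receptor of platelets. It was the lowest member in whole spleen per kilobase of exon, and ran from 0.588 through 1.54 to 3.43 CPM on 9 to 42 counts a sample, and from 2.70 through 8.03 to 17.7 CPM in the size-selected samples (log2 fold change 2.43, SE 0.43, edgeR adjusted p = 6.53e-05). It was higher in 8 of 8 pairs, and the overlap came from the bottom 2 size-selected samples, 408 and 460. *Treml1* encodes TLT-1, a receptor kept in the alpha-granule membrane until platelets are activated. It ran from 2.40 through 3.41 to 7.15 CPM in whole spleen and from 2.79 through 11.5 to 23.7 CPM in the size-selected samples (log2 fold change 1.52, SE 0.34, edgeR adjusted p = 0.000667). In number 460 it was the other way round, 3.47 CPM in whole spleen and 2.79 CPM in the size-selected sample.

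*Vwf*, the adhesive ligand of the complex, showed the widest gap of the 9. It ran from 3.98 through 8.34 to 14.8 CPM in whole spleen and from 17.98 through 48.1 to 149 CPM in the size-selected samples (log2 fold change 2.93, SE 0.42, edgeR adjusted p = 6.04e-06). The lowest size-selected sample, number 460, was above the highest whole spleen sample, number 407. *Vwf* is the only member whose deposited size-selected values are estimated counts multiplied by constants, which no label mentions; the product was 0.684 to 0.799 over the 8 columns. Divided by them, the size-selected mean went from 62.7 ± 46.4 to 79.8 ± 59.2 CPM (SD, n = 8) and the log2 fold change to 3.31 (SE 0.43, edgeR adjusted p = 1.87e-06).

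**Figure D2:**
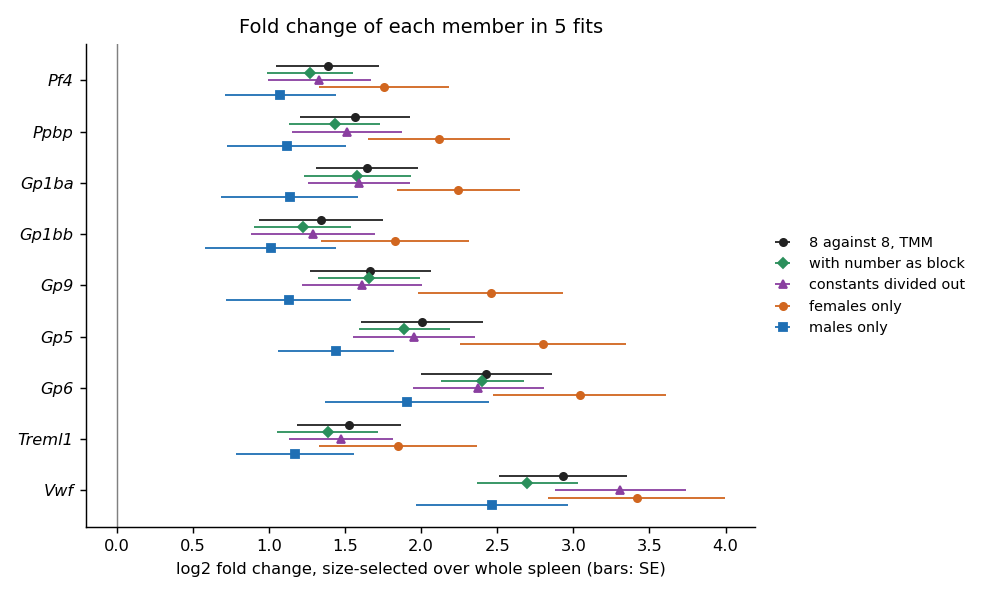
Log2 fold change of each member, size-selected over whole spleen, with standard errors, in 5 fits: 8 against 8 samples, with the number as a block, with the constants divided out, in the 4 female numbers and in the 4 male numbers. Every point lies above 0; the female estimate is above the male estimate for each member, and dividing out the constants moves *Vwf* up and the others slightly down.

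Per kilobase of merged exons, *Pf4* and *Ppbp* stood far above the other members in both groups. In whole spleen *Pf4* was at 38.8 ± 17.1 and *Ppbp* at 34.5 ± 17.1 CPM per kilobase (SD, n = 8), and *Gp9* followed at 8.06 ± 5.60. Below them came *Gp1bb* (3.56 ± 1.95), *Treml1* (2.99 ± 1.22), *Gp5* (2.20 ± 1.23), *Gp1ba* (0.700 ± 0.311), *Vwf* (0.513 ± 0.213) and *Gp6* (0.280 ± 0.175 CPM per kilobase). Neighbours in this order differed by less than the larger of their SDs except at the steps from *Ppbp* to *Gp9*, from *Gp5* to *Gp1ba* and from *Vwf* to *Gp6*. Within samples the order held in 8 of 8 at the first pair of these steps and in 7 of 8 at the last, and in 5 of 8 for *Gp1bb* over *Treml1*. In the size-selected samples *Ppbp* (102 ± 58.4) and *Pf4* (101 ± 54.1 CPM per kilobase) were level, and *Vwf* (3.90 ± 2.89) had passed *Gp1ba* (2.19 ± 1.11), being above it in 7 of 8 samples. The lengths merge all exons of the annotation, so a gene read mostly from a short transcript is placed too low.

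Whether the members rose by different amounts was tested with the ratio of each of the 36 pairs of members within a sample, by an exact two-sided permutation test of size-selected against whole spleen, with p-values adjusted over the 36 pairs. The ratio changed for 17 of 36 pairs, and for 10 without number 460. *Vwf* rose more than 7 of the 8 other members, by 0.78 (over *Gp5*) to 1.46 (over *Gp1bb*) on the log2 scale, with adjusted p from 0.0028 to 0.0216 (exact permutation). Over *Pf4* the gain was 1.39, from a log2 ratio of -1.75 ± 0.37 in whole spleen to -0.35 ± 0.50 in the size-selected samples (SD, n = 8 each), and it was present in 8 of 8 pairs. Over *Gp5* the call was lost without 427, 435, 445 or 460 (adjusted p from 0.0501 to 0.0741, exact permutation). Against *Gp6* the change was 0.35 and missed the threshold (adjusted p = 0.362, exact permutation); with the constants of *Vwf* divided out it was 0.78 (adjusted p = 0.0665, exact permutation).

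Among the other 8 members the ratio changed for 10 of 28 pairs, and for 1 with the pairing kept. *Pf4* lost ground to *Gp5* by 0.61 on the log2 scale (adjusted p = 0.00769, exact permutation), to *Gp9* by 0.38 (adjusted p = 0.0151, exact permutation) and to *Gp6* by 1.04 (adjusted p = 0.0182, exact permutation; without 447 it was 0.0516 and without 460 0.0644). Inside the receptor complex *Gp1bb* lost ground to *Gp5* by 0.67 (adjusted p = 0.00639, exact permutation) and to *Gp9* by 0.45 (adjusted p = 0.0173, exact permutation; 0.0644 without 460), while *Gp1ba* against *Gp1bb* moved by 0.31 and missed the threshold (adjusted p = 0.271, exact permutation). *Pf4* against *Gp1bb* moved least of all pairs with *Pf4*, by 0.065 (adjusted p = 0.651, exact permutation). With sign flips of the 8 same-numbered differences, which keep the pairing as a replicate block, 7 of 36 pairs were called: 6 with *Vwf*, where the ratio to *Gp5* missed at an adjusted p of 0.0511 (exact sign flips), and *Ppbp* over *Gp1bb* (change 0.23, adjusted p = 0.0402, exact sign flips). The listed ratios of *Pf4* and *Gp1bb* to *Gp5*, *Gp9* and *Gp6* were not among them, with adjusted p from 0.0511 to 0.0662 (exact sign flips).

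Apart from *Gp6* in whole spleen, the members largely went up and down together from sample to sample. In whole spleen this includes a split between the sexes for 6 of the 9 members, described below. In whole spleen the sample 407 was the highest for 8 of 9 members (427 for *Gp6*), and 445 was the lowest for 6. Summed over the members, whole spleen held from 55.4 CPM in 445 to 201 CPM in 407. In the size-selected samples 436 was the highest for 7 members and 427 for *Pf4* and *Gp1bb*, and these samples took the top 2 places for all 9. At the other end 460 was the lowest for 7 members and 408 for 2, and they took the bottom 2 places for all 9. The summed members ran there from 86.2 CPM in 460 and 133 CPM in 408 to 572 CPM in 427 and 646 CPM in 436. The order of the numbers differed between the groups: number 436, with the highest size-selected sum, held 70.6 CPM in whole spleen, below the 4 male samples.

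Correlations with *Pf4* were computed within each group over 8 samples (log2 CPM, prior count 2; exact two-sided permutation, adjusted over 18 relations). In the size-selected samples Pearson's r was 0.89 (*Vwf*) to 0.99 (*Gp9*) for all 8 other members, with adjusted p from 0.000335 to 0.00406 (exact permutation), and without the 2 samples farthest from the median of *Pf4* it stayed between 0.80 and 0.96. In whole spleen r was 0.82 to 0.98 for 7 of the 8 (adjusted p from 0.000149 to 0.0171, exact permutation), where the rank order of *Ppbp*, *Gp1bb* and *Gp9* over the 8 samples was that of *Pf4* (Spearman's rho 1). Spearman's rho missed the threshold after adjustment for *Treml1* (0.74, adjusted p = 0.0589, exact permutation) and *Vwf* (0.71, adjusted p = 0.0691, exact permutation) in whole spleen, and for *Gp1ba* in the size-selected samples (0.74, adjusted p = 0.0589, exact permutation). *Gp6* had r = 0.42 and rho = 0.45 in whole spleen (adjusted p = 0.329 for r, exact permutation). Without the 2 samples farthest from the median of *Pf4*, r in whole spleen ran from 0.56 (*Vwf*) to 0.97 (*Ppbp*) for the same 7. The whole spleen values pool the sexes, and for 6 of the 9 members, *Pf4* among them, every female was below every male. The permutation took no account of sex, and the relations within 1 sex were not tested.

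*Vwf*, which endothelial cells also make, was set beside *Cdh5*, the gene of the endothelial junction protein VE-cadherin. Within whole spleen their r was 0.39 and rho 0.26 (adjusted p = 0.362 for r, exact permutation), and within the size-selected samples r was 0.36 and rho 0.31 (adjusted p = 0.384 for r, exact permutation); without the 2 samples farthest from the median of *Cdh5* these r were 0.43 and -0.30. With *Pf4* the r of *Vwf* was 0.82 in whole spleen and 0.89 in the size-selected samples (rho 0.71 and 0.90). Between the groups *Cdh5* rose from 3.14 ± 1.48 to 78.3 ± 24.1 CPM (SD, n = 8; log2 fold change 4.65, SE 0.27, edgeR adjusted p = 1.46e-10). That the r with *Pf4* and the r with *Cdh5* differ was not tested. *Cdh5* is 1 of the 12 endothelial markers listed, and *Vwf* was not set beside the others in this way.

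**Figure D3:**
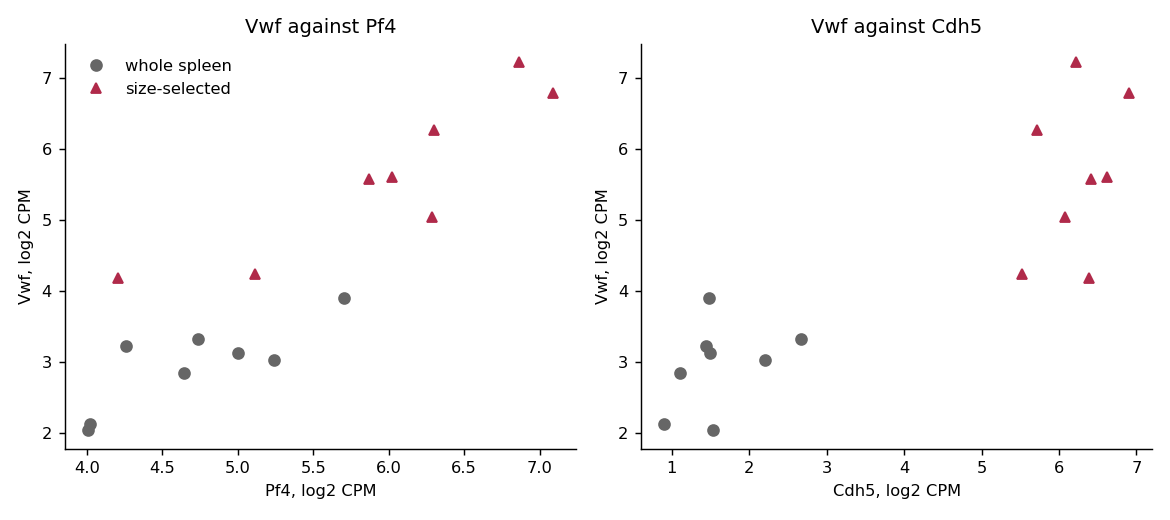
Log2 CPM of *Vwf* (vertical axis) against *Pf4* (left) and *Cdh5* (right) in 8 whole spleen samples (circles) and 8 size-selected samples (triangles). Within each group *Vwf* climbs with *Pf4* (r = 0.82 and 0.89), while against *Cdh5* the groups form 2 separate clouds with r = 0.39 and 0.36 inside them.

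The genes most like the members were sought among the 14501 others that passed the filter, by the correlation over 16 samples of their deviation from the group mean with the mean deviation of the 8 members other than *Vwf*. The first 8 were *Itga2b* (r = 0.93), the integrin alphaIIb chain of the fibrinogen receptor, *Mpig6b* (0.93), an inhibitory receptor of megakaryocytes, *Alox12* (0.92), the platelet 12-lipoxygenase, *Tmem40* (0.91), *Nrgn* (0.91), *F2rl2* (0.91), the protease-activated receptor PAR3 of mouse platelets, *Pls1* (0.89) and *Rgs18* (0.88), a regulator of G protein signalling in platelets. All 8 rose with size selection, by log2 fold changes of 0.98 (*F2rl2*) to 2.66 (*Alox12*). *Vwf* itself had r = 0.89, with 6 of the 14501 genes above it, against *Cdh5* at r = 0.36 and 2773 above it. The 7 megakaryocyte markers that are not members were spread widely on this measure: *Itga2b* was first, *Clec1b* (0.84), *Tubb1* (0.80) and *Nfe2* (0.51) followed, *Gata1* (0.35) was just under *Cdh5*, and *Itgb3* (-0.08) and *Gfi1b* (-0.13) had 8493 and 9094 genes above them. The endothelial *Pecam1* had r = 0.42, from -0.06 within whole spleen and 0.62 within the size-selected samples. The likeness is over samples that share their libraries' cell mixture and is given as a description.

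Other platelet receptors rose with the members. Of 15 described, 14 were called higher and none lower, with a median log2 fold change of 1.94; of all genes 37.5% were called higher and 30.4% lower. *Cd36*, the scavenger and thrombospondin receptor, was the most abundant over the 16 samples, at 161 ± 23.0 CPM in whole spleen and 981 ± 257 CPM in the size-selected samples (SD, n = 8; log2 fold change 2.61, SE 0.15, edgeR adjusted p = 1.48e-10). In whole spleen alone *Cd9* stood higher, at 258 ± 55.3 CPM (SD, n = 8). *P2rx1*, the ATP-gated channel of platelets, rose by 4.21 (SE 0.37, edgeR adjusted p = 1.18e-08). *Selp*, P-selectin, ran from 1.12 through 26.0 to 242 CPM in the size-selected samples against 1.22 to 3.10 CPM in whole spleen (log2 fold change 4.81, SE 0.83, edgeR adjusted p = 4.93e-05). Its size-selected sample 407 was at the level of whole spleen, without number 436 its fold change was 3.90, and with limma-voom the adjusted p was 0.0521. *Itgb3*, the beta3 partner of *Itga2b*, was the 1 receptor not called, at 78.0 ± 14.9 and 90.4 ± 17.9 CPM (SD, n = 8; log2 fold change 0.21, edgeR adjusted p = 0.166), and was named after its value was seen. Several listed receptors, among them *Cd36* and *Selp*, are also expressed by endothelial cells or macrophages, whose markers rose too.

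Granule genes were mixed: of 12, 7 were called higher and 2 lower (median 0.68), and on counts with the constants divided out 5 higher and 2 lower; of all genes 37.5% were called higher and 30.4% lower. With the number as a block 6 were higher and 2 lower. *Mmrn1*, the factor V-binding multimerin of alpha-granules, rose by 2.41 on the log2 scale (SE 0.46, edgeR adjusted p = 0.000133; without number 436 by 1.93), and *Clu*, clusterin, rose by 3.88 (SE 0.34, edgeR adjusted p = 1.06e-08), both on values that carry constants. *Srgn*, the proteoglycan serglycin that many blood cells pack into granules, fell by 1.15 on the log2 scale (SE 0.14, edgeR adjusted p = 7.40e-07), from 2266 ± 326 to 1023 ± 223 CPM (SD, n = 8).

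Of 10 megakaryocyte transcription factors 2 were called higher and 5 lower, where 37.5% and 30.4% of all genes were, and their median log2 fold change was -0.40, against 0.048 over all genes. *Gfi1b*, a repressor shared by the megakaryocyte and red cell lineages, fell by 1.72 on the log2 scale (SE 0.42, edgeR adjusted p = 0.00135), and *Fli1*, an ETS factor of blood and endothelium, fell by 1.30 (SE 0.14, edgeR adjusted p = 1.36e-07), or by 0.60 with its constants divided out. *Gata1*, the master factor of both lineages, was at 4.61 ± 3.18 CPM in whole spleen and 3.30 ± 1.85 CPM in the size-selected samples (SD, n = 8; edgeR adjusted p = 0.351). *Meis1* rose by 3.93 (SE 0.42, edgeR adjusted p = 1.32e-07), from 0.855 ± 0.544 to 13.1 ± 4.72 CPM, and *Lmo2* by 0.36 (SE 0.11, edgeR adjusted p = 0.00926), a call lost within the 4 numbers of either sex. With the constants divided out 3 were higher and 6 lower, and with the number as a block 3 higher and 5 lower.

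Of 17 cytoskeletal and signalling genes of platelets, 7 were called higher, 3 lower and 7 not called (median 0.30), where 37.5% of all genes were called higher and 30.4% lower. With the constants divided out 9 were higher and 4 lower, and with the number as a block 8 higher and 3 lower. *Tubb1*, the beta1-tubulin of the platelet microtubule ring, rose from 4.35 ± 1.17 to 26.2 ± 15.8 CPM (SD, n = 8; log2 fold change 2.59, SE 0.32, edgeR adjusted p = 9.61e-07), and *Alox12* rose by 2.66 (SE 0.30, edgeR adjusted p = 3.37e-07). *Plek*, pleckstrin, rose by 0.53 (SE 0.12, edgeR adjusted p = 0.000942), a call lost in males alone, and *Was*, the Wiskott-Aldrich actin regulator of all blood cells, fell by 0.88 (SE 0.15, edgeR adjusted p = 2.96e-05). *Plek* was the most abundant over the 16 samples, barely above *Flna* (mean log2 CPM 9.478 against 9.470, deposited values). In the size-selected samples *Flna* stood higher, at 1036 ± 335 against 841 ± 171 CPM (SD, n = 8).

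Of 6 partners of von Willebrand factor and Weibel-Palade body genes, 5 were called higher and none lower (median 3.16), where 37.5% of all genes were called higher and 30.4% lower. *Cd63* rose from 48.9 ± 10.6 to 425 ± 128 CPM (SD, n = 8; log2 fold change 3.12, SE 0.20, edgeR adjusted p = 3.35e-10). *Angpt2*, angiopoietin-2, rose by 5.72 (SE 0.37, edgeR adjusted p = 4.53e-10) from at most 13 counts in a whole spleen sample. *Adamts13*, the protease that cuts von Willebrand factor, rose by 5.42 (SE 0.65, edgeR adjusted p = 6.36e-07) from at most 14 counts, to 3.53 to 15.03 CPM. With the constants of the named list genes divided out, the log2 fold change was 2.85 for *Cd36*, 2.81 for *Mmrn1*, 4.41 for *Clu*, 2.83 for *Tubb1*, 2.90 for *Alox12*, 3.20 for *Cd63*, 5.80 for *Angpt2* and 5.66 for *Adamts13*.

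**Figure D4:**
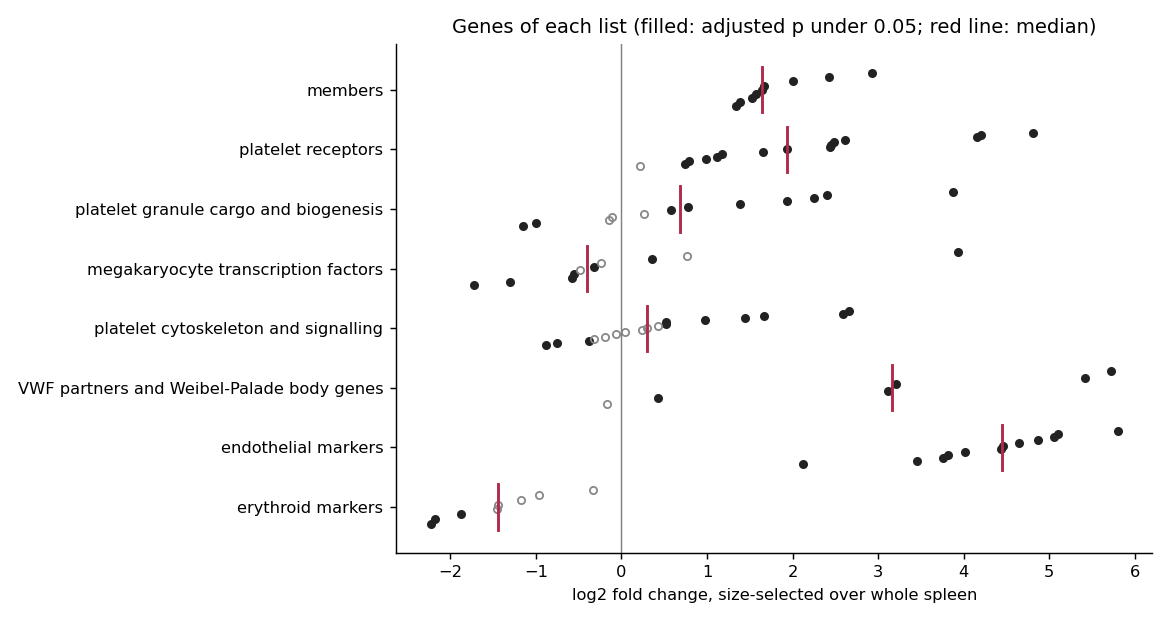
Log2 fold change, size-selected over whole spleen, of each gene (points) in the members, in 5 lists of platelet, megakaryocyte and von Willebrand factor genes, and in the endothelial and erythroid markers; filled points have an adjusted p under 0.05 and the red line is the median of a list. The members and the platelet receptors lie above 0, the transcription factors have a median of -0.40, and the endothelial markers a median of 4.45.

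Markers of other cells moved between the groups as well, where 37.5% of all genes were called higher and 30.4% lower. The 12 endothelial markers were all called higher, their summed CPM going from 149 to 534 in whole spleen to 2530.3 to 6869 in the size-selected samples, and 9 of 9 stromal markers and 4 of 6 macrophage markers were higher. The glia markers summed to 0.622 to 3.10 CPM in whole spleen and 68.4 to 544 CPM in the size-selected samples, with 6 of 6 tested called higher (of 7 listed). B cell markers fell (5 of 5) and still summed to 824 to 3109 CPM in the size-selected samples; 4 of 5 T cell, 5 of 6 neutrophil and 4 of 4 tested mast cell and basophil markers fell. Of 8 erythroid markers 3 were called lower, and 7 with the number as a block. With that block 6 of 6 neutrophil markers were called lower. The T cell marker *Cd4* was then called higher (log2 fold change 0.32, edgeR adjusted p = 0.0371). With the constants divided out 3 mast cell and basophil and 2 erythroid markers were called lower, the lost calls being *Cpa3* and *Hbb-bs* (edgeR adjusted p = 0.0545 and 0.0554). Of 7 megakaryocyte markers that are not members, 3 (*Itga2b*, *Clec1b*, *Tubb1*) were called higher and 2 (*Gfi1b*, *Nfe2*) lower, which is near the shares of all genes. No listed marker was at 0 in every sample of a group. The sample 427 held the highest endothelial (6869 CPM) and stromal (5487 CPM) sums of the size-selected samples and 436 the highest glia sum (544 CPM), while 408 held the lowest endothelial (2530.3 CPM) and stromal (1493 CPM) sums. The sample 460, with the members lowest, held 4248 CPM of endothelial markers and the highest macrophage sum (6226 CPM). The part of these cells in the members' values was not tested.

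Between the sexes the members were compared within each group, 4 females against 4 males. In whole spleen all 9 had a lower mean in females, where 51.2% of all genes tested had a fold change below 0, and their median log2 fold change was -1.02. None was called by edgeR, where 0.0971% of all genes were called lower in females, but 7 had an unadjusted p under 0.05 and were lower, as did 8.5% of all genes. The smallest adjusted p was 0.0679, for *Ppbp*, *Gp5* and *Gp1bb*. With DESeq2, which called 2.2% of genes lower, 5 members were called lower (*Pf4*, *Ppbp*, *Gp9*, *Gp5* and *Gp1bb*; adjusted p from 0.00081 to 0.00167), and edgeR called 5 lower as well with no count filter (0.642% of genes) or without number 427 (1.11% of genes); limma-voom called none.

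In the samples themselves, all 4 females were below all 4 males for 6 of the 9 members (*Pf4*, *Ppbp*, *Gp1ba*, *Gp1bb*, *Gp9* and *Gp5*), as they were for 4.14% of all genes. *Gp5* was at 9.88, 4.65, 7.18 and 6.24 CPM in the male samples 407, 408, 427 and 435, and at 2.80, 2.61, 2.94 and 2.44 CPM in the female samples 436, 445, 447 and 460. *Gp9* was at 18.1, 7.93, 6.45 and 9.04 CPM in males and at 4.03, 3.16, 4.51 and 3.60 CPM in females. For both genes the female samples lay close together and the males were spread more widely, with 407 the highest. *Gp6*, *Treml1* and *Vwf* overlapped between the sexes.

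Markers of other cells also had lower values in females in whole spleen, though edgeR called none of them; DESeq2 called 1 endothelial (*Plvap*), 1 B cell (*Cd79a*) and 1 T cell marker (*Cd8a*) lower, named after their values were seen. The summed endothelial markers were at 149 to 198 CPM in females and 203 to 534 CPM in males, with 11 of 11 tested below 0 (median log2 fold change -0.85). Of the stromal markers 7 of 7 tested were below 0 (median -1.08), as were 6 of 6 macrophage (-0.30), 6 of 6 neutrophil (-0.46) and 7 of 8 erythroid markers (-0.47), and the summed CPM of each of these 4 lists overlapped between the sexes. Of the B cell, T cell and mast cell and basophil markers, 3 of 5, 4 of 5 and 3 of 4 tested were below 0. The 7 megakaryocyte markers that are not members were divided, with 4 below 0 and 3 above. *Itga2b* was at 11.3 ± 3.67 CPM in the 4 females against 21.7 ± 7.54 CPM in the 4 males (SD; edgeR adjusted p = 0.139, DESeq2 adjusted p = 0.0222). *Clec1b*, the podoplanin receptor of platelets, was at 11.8 ± 2.01 and 19.7 ± 3.25 CPM (SD, n = 4; edgeR adjusted p = 0.0989, DESeq2 adjusted p = 0.00988). *Itgb3* lay the other way, at 88.0 ± 12.9 CPM in the females against 68.1 ± 9.48 CPM in the males (SD, n = 4; edgeR adjusted p = 0.221), and made up 55.0% of the summed list, whose sums overlapped at 120 to 165 CPM in females and 129 to 157 CPM in males. The part of these markers in the members' difference was not tested.

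In the size-selected samples the sexes overlapped for every member, no member was called by edgeR, DESeq2 or limma-voom or had an unadjusted edgeR p under 0.05, and the log2 fold changes ran from -0.57 (*Gp1bb*, SE 0.57) to 0.14 (*Vwf*, SE 0.64). Here 4 members were higher in females and 5 lower, and the split depended on single numbers: leaving out 436, or 408, put all 9 lower in females, and leaving out 427, or 460, put 7 higher. The rise from whole spleen to size-selected samples was larger in females than in males for all 9, by 0.61 (*Treml1*, SE 0.68) to 1.29 (*Gp5*, SE 0.69) on the log2 scale, but no member passed the test of that difference (edgeR adjusted p = 0.99987 for each; unadjusted p from 0.0754 to 0.381), nor did any of the 15760 genes tested, of which 744 had an unadjusted p under 0.05; DESeq2 and edgeR with the number as a block each called 3 genes and none of the members. Without number 436 the rise was larger in females for 8 of the 9. The members' median of that difference then went from 0.94 to 0.38 on the log2 scale. Within the 4 male numbers alone, *Gp1ba* (edgeR adjusted p = 0.0611) and *Gp1bb* (edgeR adjusted p = 0.0772) were not called higher in the size-selected samples, and the other 7 were.

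**Figure D5:**
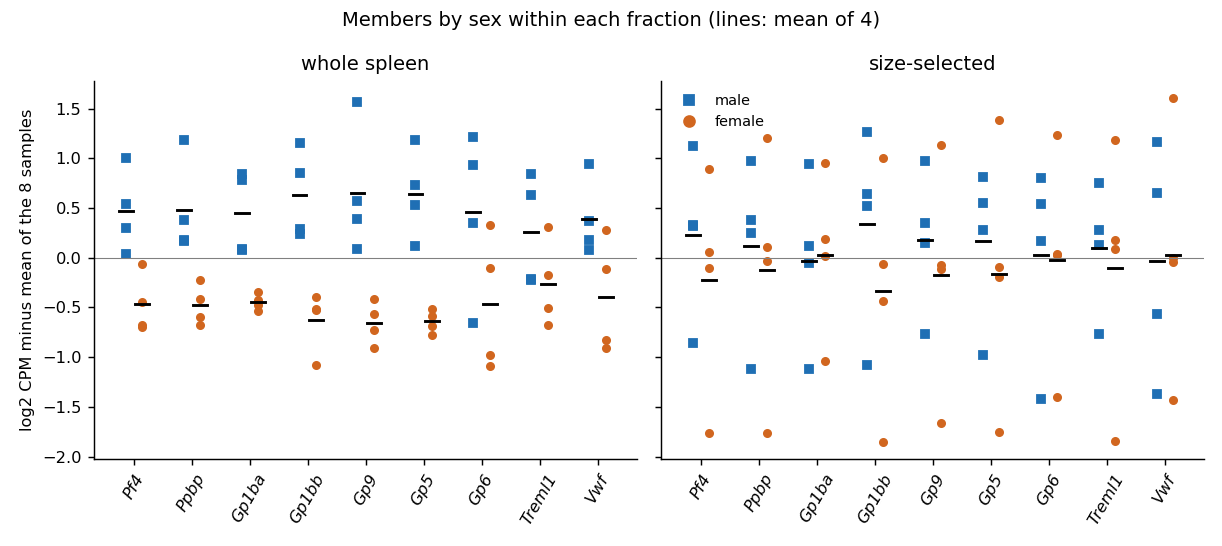
Log2 CPM of each member minus the mean of the 8 samples of its group, by sex, in whole spleen (left) and size-selected samples (right); squares are males, circles females and lines the mean of 4. In whole spleen the female points lie below the male points for 6 of 9 members, and in the size-selected samples the sexes overlap for all 9.

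The authors' deposited table of their own comparison lists 2201 genes, the lowest at 3.5 on the log2 scale, and none of the 9 members is among them. The largest rise of a member here, that of *Vwf*, was below that value, at 2.93, or 3.31 with its constants divided out. Of the list genes named above, the authors' deposited table holds *Cdh5* (log2 fold change 4.69), *Plvap* (4.47), *P2rx1* (4.12), *Meis1* (4.00), *Clu* (3.88), *Angpt2* (5.02) and *Adamts13* (5.38). It does not hold *Selp*, whose log2 fold change was 4.81 here.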

How the data were processed

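Per the submitters' processing notes, which name them with no role, order or version, Trim Galore, STAR, RSEM and DESeq were used, with the mm10 build; settings are not given in the sources used here. The deposited values are estimated counts per gene from the authors, with totals of 13119992 to 19944440 in the size-selected and 12153770 to 16282454 in the whole spleen samples. In the size-selected columns 3898 genes carry 1 to 3 multiplying constants, found from the values alone; dividing by them gave restored counts (the search was tested on simulated columns). The deposited table of the authors' comparison gives log2 fold changes and p-values, per the file headers. All columns of per-sample values were matched to samples.

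Counts were rounded and tested with edgeR 4.0.16 (R 4.3.3; filterByExpr with minimum count 10, TMM, quasi-likelihood F test, Benjamini-Hochberg adjustment over all genes tested, threshold 0.05), with the group or sex as the only term. Standard errors come from the F statistic. Alternatives were RLE scaling, library totals, no filter, DESeq2 1.42.0, limma-voom (limma 3.58.1), restored counts, the number as a block, sex as a covariate, 1 sex, a fold minimum, a prior count of 0.5 in place of 2, and leaving out each number. The numbers pair the samples: over all genes tested, deviations from the group mean of same-numbered samples correlated at 0.12 to 0.38, against a mean of -0.029 for different numbers. On simulated counts with a log2 change of 2, edgeR recovered 94.7% of the 190 changed genes tested between the groups, 80.6% of 196 between the sexes in whole spleen, 82.5% of 194 in the size-selected samples and 67.5% of 200 for the interaction. The members' median change was smaller for the sexes in whole spleen (-1.02) and for the interaction (0.94). Recovery at such changes was not simulated, and the simulated samples carried no pairing by number.

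The members, lists and motifs were chosen with earlier results of these data known. Genes named from a list are its most abundant gene over the 16 samples and, where called and at a log2 CPM of 1 or more on average, the 2 that rose most and the 1 that fell most; others named were chosen after their values were seen. One gene of these lists is not reported here and enters no list's count, median or sum. Identifiers were matched to GENCODE M21 (GRCm38). Counting error was not given separately, since replicates carry it.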

Additional observations from a re-analysis of the deposited data

How the results depend on the processing

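The 9 members kept their direction between the groups under all alternatives run, and 9 of 9 stayed called under each except in males alone, where 7 did. With the number as a replicate block the 9 members were called and 10076 genes in all; the block changed no other call of a member between the groups or in the interaction. Library totals moved the median of all genes from 0.048 to 0.18 and that of the members from 1.65 to 1.77. A fold change minimum of 1 on the log2 scale left 4844 genes and all 9 members called. For the sexes in whole spleen, where edgeR called 26 genes and none of the members, no count filter gave 273 genes and 5 members and DESeq2 518 genes and 5 members; leaving out 1 number gave 7 (without 460) to 261 genes (without 427) and 0 to 5 members. Restored counts give identical values there, since whole spleen columns carry no constants. For the sexes in the size-selected samples edgeR called 6 genes and DESeq2 22. In the interaction DESeq2 and the replicate block each called 3 genes in place of 0, and leaving out 1 number called 0 to 1; none were members. Of the 36 ratios of members, 17 were called, 7 with sign flips as the replicate block and 10 (without 460) to 19 (without 427) when a number was left out; the ratio of *Vwf* to *Gp5* missed the threshold without 427, 435, 445 or 460 (adjusted p from 0.0501 to 0.0741, exact permutation). Of 18 correlations 15 were called, and 15 also with restored counts or the other prior count. In whole spleen *Gp6* rests on 9 to 42 counts a sample and *Gp1ba* on 18 to 42. The causes of these changes were not tested.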
